A study of Oryza sativa with 6 samples.

Results

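G-quadruplexes (G4s) specific to K+ or to Na+ occurred together along every rice chromosome, and a minority of 1 Mb bins lay at the extremes of the mixture of types. A bin was chosen by its K share, the percentage of its specific G4s that were K+-specific. Each chromosome was cut from position 1, G4s were counted by their midpoint, and bins with at least 30 G4s of both types were kept. Of 379 bins with any G4, 375 were kept, and their members were selected on a K share of at most 55% (K-poor bins) or at least 75% (K-rich bins). The K-poor bins numbered 25 and held 1531 G4s, and the K-rich bins numbered 34 and held 2372 G4s. Together they held 3903 of the 25509 specific G4s, or 15.3%. The other 21556 G4s lay in the 316 bins between the limits, and 50 lay in 4 partly covered bins at chromosome ends that fell under the minimum.

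G4s are structures of DNA in which runs of guanine pair in stacked planes around a central cation. K+ fits between the planes and stabilises the fold, and Na+, a smaller ion, sits differently and generally stabilises it less. Whether a guanine-rich stretch folds also depends on the length of its guanine runs and of the loops between them.

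The study compared DNA of wild-type rice seedlings that was folded in vitro with PEG200, a crowding agent, and either KCl (K+PEG) or NaCl (Na+PEG), with 2 replicates of each and 2 input libraries. Folded DNA was pulled down with BG4, an antibody to G4s, and sequenced (BG4-DNA-IP-seq), which gives peaks called IP-G4s. The plant material had been cross-linked with formaldehyde, and both conditions met KCl again in the buffers for the antibody and the washes, so that the cation differed at the folding step alone. An IP-G4 was listed as specific where a peak was shared by both replicates of one condition and overlapped no such segment of the other condition. These lists give positions without any value, and they were made from pooled evidence of all 4 enriched libraries. One list exists per type for one genome, so that bins and IP-G4s are not replicates of a condition. Values of single libraries were used here for the start of Chr1 only.

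An oligo of each type, which the supplementary material of the study names by the cation its locus was specific to, is given as a single example. It does not describe the type as a whole. Capitals mark runs of at least 3 guanines. Their positions are not given in the sources used here, so they were assigned to no bin.
K+-specific oligo: GGGcggctGGGaggccGGGGtGGGGGG
Na+-specific oligo: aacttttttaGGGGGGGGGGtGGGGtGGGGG
The K+-specific oligo has 4 guanine runs in 27 bases, with a longest run of 6. The Na+-specific oligo has 3 runs in 31 bases, and its longest run is 10 guanines. In circular dichroism, a spectroscopic measure of folding, the paper found a similar amplitude in Na+ and K+ for the Na+-specific sequence. Its antibody signal on dot blots was reported as stronger under NaCl with PEG200 than under KCl with PEG200.

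On 12 chromosomes the lists held 16725 IP-G4s of the K+ type and 8784 of the Na+ type, a K share of 65.6% (95% Wilson interval 65.0% to 66.1%). All intervals given here cover counting error only. The kept bins held 30 to 124 IP-G4s, with a median of 66. The K share had an SD of 6.61 percentage points across the 375 bins, whereas counting error alone at the share of the whole list corresponds to a mean SD of 5.89 points. K-poor bins were 6.67% and K-rich bins 9.07% of all kept bins, which is a count the limits set. The interval of the K share lay wholly below the share of the whole list in 18 bins (4.8% of the kept bins), all of them K-poor, and wholly above it in 16 bins (4.27%), all of them K-rich. The interval of the remaining 7 K-poor and 18 K-rich bins held the list's share. Each interval is built from the same counts as the K share that chose the bin, so that these numbers are not a test. At a level of 95%, some of the 375 intervals miss the list's share by counting error alone. A bin with few IP-G4s reaches either limit more easily, as the plot of K share against number shows.

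**Figure D1:**
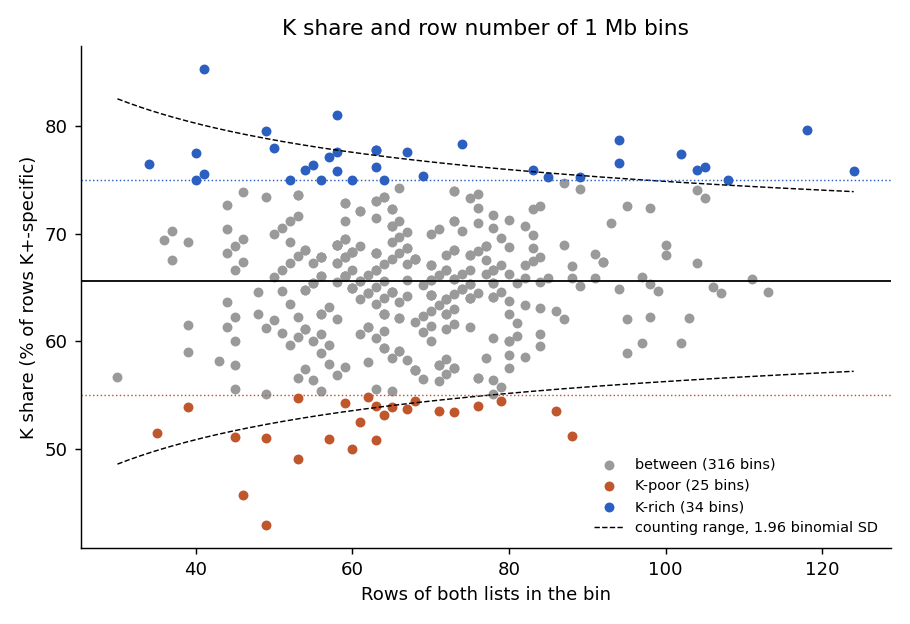
K share of each 1 Mb bin (vertical axis, percentage of specific IP-G4s that were K+-specific) against the number of specific IP-G4s in the bin (horizontal axis). Points are the 375 kept bins, the solid line is the share of the whole list (65.6%), dashed lines are 1.96 binomial SD around it and dotted lines are the limits of 55% and 75%. Bins with few IP-G4s spread most widely, and 8 K-rich bins but no K-poor bin held 90 or more.

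The lowest K share was that of Chr5, 26000001 to 27000000, with 21 K+-specific and 28 Na+-specific IP-G4s (42.9%, interval 30.0% to 56.7%). It was followed by Chr3, 29000001 to 30000000, with 21 and 25 (45.7%), and by Chr10, 14000001 to 15000000, with 26 and 27 (49.1%). Chr1, 7000001 to 8000000, held 30 of each (50%), and Chr4, 34000001 to 35000000, held 32 and 31 (50.8%, 38.8% to 62.7%). In only 4 of the 375 bins did Na+-specific IP-G4s equal or outnumber K+-specific ones, and these were the first 4 bins named. A K-poor bin was thus mostly a region of near parity, in a list where K+-specific IP-G4s prevail.

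At the other end, Chr9, 22000001 to 23000000, held 35 K+-specific and 6 Na+-specific IP-G4s (85.4%, interval 71.6% to 93.1%). This bin is the last one of its chromosome and has no more than 41 IP-G4s. Chr10, 21000001 to 22000000, held 47 and 11 (81.0%, 69.1% to 89.1%). Chr2, 13000001 to 14000000, held 94 and 24 (79.7%, 71.5% to 85.9%), and it was the second densest bin of the whole list, after another K-rich bin. Chr6, 2000001 to 3000000, held 39 and 10 (79.6%), and Chr8, 6000001 to 7000000, held 74 and 20 (78.7%). The highest shares therefore came from sparse bins near chromosome ends as well as from some of the densest bins.

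The limits cut through a continuous range of shares. The K-poor bins nearest to 55% were Chr2, 25000001 to 26000000 (34 and 28, 54.8%) and Chr3, 34000001 to 35000000 (29 and 24, 54.7%). Just outside stood Chr11, 4000001 to 5000000 (27 and 22, 55.1%) and Chr1, 18000001 to 19000000 (43 and 35, 55.1%). Within 2 points of this limit lay 14 bins inside and 17 outside. At the upper limit, 6 K-rich bins had exactly 75%, and the nearest bins outside were Chr6, 8000001 to 9000000 (65 and 22, 74.7%) and Chr4, 22000001 to 23000000 (49 and 17, 74.2%). Here 20 bins lay within 2 points inside and 17 outside.

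Both types differed in number between K-poor bins and the bins between the limits, in opposite directions. The median number of K+-specific IP-G4s was 32 per K-poor bin and 43 in the bins between, 25.6% fewer, and that of Na+-specific IP-G4s was 29 against 23, or 26.1% more. Among the 25 K-poor bins, 19 had fewer K+-specific and more Na+-specific IP-G4s than these medians, 3 had fewer of both and 2 had more of both. Since the K share is built from these counts, they describe how the bins came to be chosen and were not tested.

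By medians, K-rich bins differed mainly by fewer Na+-specific IP-G4s. Their median number was 14.5 per bin, 37.0% under the 23 of the bins between, and the median of K+-specific IP-G4s was 48, or 11.6% over the 43 there. Na+-specific IP-G4s were below 23 in 28 of the 34 K-rich bins, and K+-specific ones above 43 in 23. In 17 bins K+-specific IP-G4s were above and Na+-specific ones below the medians, in 11 both were below, and in 5 both were above. The means gave a different balance for the K+ type, 53.6 ± 18.6 (SD, n = 34 bins) against 44.5 ± 10.3 (n = 316), because some K-rich bins were very dense. For the Na+ type the means were 16.1 ± 5.92 against 23.7 ± 5.85. The choice of K-rich bins also used these counts, and they were not tested.

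**Figure D2:**
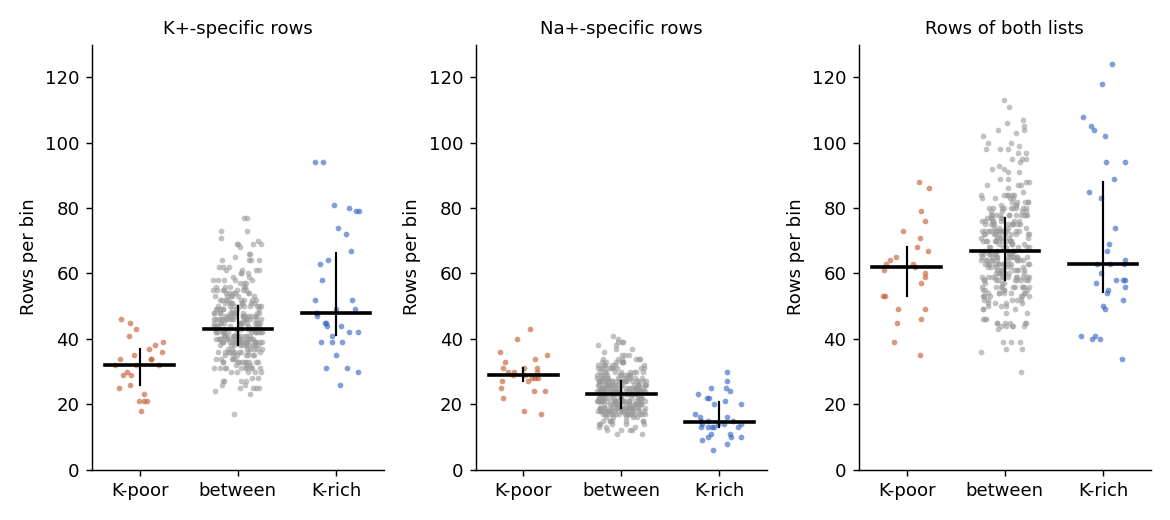
Number of K+-specific, Na+-specific and all specific IP-G4s per 1 Mb bin (vertical axes) in 25 K-poor, 316 intermediate and 34 K-rich bins. Each point is a bin, the thick bar is the median and the thin bar spans the quartiles. Medians of K+-specific IP-G4s were 32, 43 and 48, those of Na+-specific IP-G4s 29, 23 and 14.5, and total numbers overlapped throughout.

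In total density the tails had nearly the same centre and unequal width. The median was 62 IP-G4s per K-poor bin (range 35 to 88) and 63 per K-rich bin (range 34 to 124), against 67 in the bins between. This difference of 1 IP-G4 is small beside the SD of single bins, 13.5 in the K-poor and 24.3 in the K-rich bins. When the 375 bins were divided by quartiles of their number into 4 groups, K-rich bins made up 14.4% of the sparsest group (15 of 104 bins, 30 to 58 IP-G4s), 5.68% and 3.26% of the middle groups, and 12.1% of the densest (11 of 91 bins, 78 or more). K-poor bins made up 8.65%, 9.09%, 5.43% and 3.30% of the same groups, from the sparsest to the densest. Of the 17 bins with 100 or more IP-G4s, 6 were K-rich (35.3%) and none was K-poor. The limit of 100 was set after the values were seen. The K share of all IP-G4s in these 17 bins, which include the 6 K-rich ones, was 70.3% (68.2% to 72.4%, counting error only) and was not tested. Across the 375 bins Spearman's rho of number and K share was 0.05. Bins share the lists from which they were counted, and this rho is given as a description.

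The 11 K-rich bins with 80 or more IP-G4s, a limit set after the values were seen, differed from the other 23 in more than number. The dense ones held medians of 79 for the K+ type and 23 for the Na+ type, against 58 and 30.5 in the 62 bins between the limits with 80 or more. The sparse ones held medians of 44 and 13, against 41 and 22 in the 254 bins between the limits with fewer than 80. Dense K-rich bins lay a median of 10.9 Mb from the nearer end of the chromosome, with 2 of 11 within 5 Mb of it, and sparse ones a median of 3.5 Mb, with 14 of 23. Bins between the limits showed a smaller contrast in the same direction, 10.5 Mb for the 62 with 80 or more IP-G4s and 7.10 Mb for the 254 with fewer. Of these, 9 of 62 and 88 of 254 lay within 5 Mb of an end. K+-specific IP-G4s averaged 318 ± 16.7 bp per dense K-rich bin and 290 ± 26.0 bp per sparse one (mean ± SD over 11 and 23 bins), against 305 ± 22.9 and 294 ± 24.7 bp in dense and sparse bins between the limits.

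Some dense K-rich bins held a long uninterrupted series of K+-specific IP-G4s. In Chr2, 13000001 to 14000000, 50 K+-specific IP-G4s followed each other with no Na+-specific one between, from 13555719 to 13731830, a span of 176 kb. The other 44 K+-specific IP-G4s of this bin stood beside the 24 Na+-specific ones, a share of 64.7%. In Chr1, 16000001 to 17000000, with 72 and 22 IP-G4s of the K+ and Na+ types, a series of 43 ran from 16767493 to 16997556 (230 kb), and 56.9% of the remaining IP-G4s were K+-specific. In Chr6, 15000001 to 16000000, with 79 and 25, a series of 34 ran from 15401011 to 15507611 (107 kb), and the remainder had a share of 64.3%. In the other 6 K-rich bins with a series of 15 or more, the remainder had shares of 60% to 71.9%. Leaving out a series of K+-specific IP-G4s lowers the share of any bin, and bins between the limits were not treated in this way, so that the remaining shares are a description only.

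A series of 15 or more K+-specific IP-G4s within the bin was present in 9 of the 34 K-rich bins, in 15 of the 316 bins between the limits and in none of the 25 K-poor bins. Such series were therefore not confined to K-rich bins. Across a border between bins, a series of 16 on Chr4, 17981147 to 18168595, ran from a K-poor bin into a bin between the limits. The second longest of the whole list, 45 IP-G4s on Chr12 from 11952645 to 12109757, crossed a border between bins that both stayed between the limits, and a series of 30 lay on Chr9 from 2750490 to 2876669. In other dense K-rich bins no long series was found: Chr5, 10000001 to 11000000, the densest bin of the list with 94 K+-specific and 30 Na+-specific IP-G4s, had a longest series of 13. The IP-G4s of the 3 long series averaged 324, 332 and 292 bp on Chr2, Chr1 and Chr6, near the 298 bp of all K+-specific IP-G4s. IP-G4s common to both conditions were not used here, so they may lie inside a series.

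**Figure D3:**
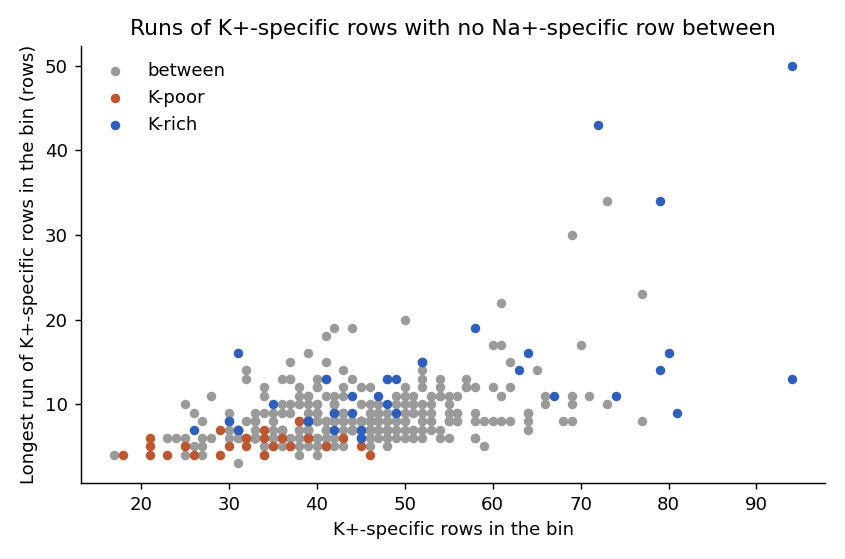
Longest uninterrupted series of K+-specific IP-G4s within each 1 Mb bin (vertical axis, number of IP-G4s) against the number of K+-specific IP-G4s in the bin (horizontal axis). Points are the 375 kept bins. The K-rich bins on Chr2, Chr1 and Chr6 with series of 50, 43 and 34 stand apart, and no K-poor bin had a series longer than 8.

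Na+-specific IP-G4s formed only short series. The longest in a K-poor bin was 8 (Chr2, 25056389 to 25092010, 35.6 kb), and the longest in a K-rich bin was 9 (Chr7, 9173519 to 9239204, 65.7 kb), in a bin that stood exactly at the 75% limit. A series of at least 6 occurred in 8 of 25 K-poor bins, 31 of 316 bins between the limits and 1 of 34 K-rich bins. The median longest series in K-poor bins was 5 for each type. The length of such series depends on the K share and the number of IP-G4s, on which the bins were chosen, so that the counts of long series of either type describe the members and were not tested.

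The first and last 500 kb of a bin showed how evenly the unequal mixture was spread. Both parts had a K share below that of the whole list in all 25 K-poor bins, and both were at or under 55% in 9. In the K-rich bins both parts were above the share of the whole list in 27 of 34, and both reached 75% in 7. In Chr5, 26000001 to 27000000, the parts had 43.3% and 42.1%, and in Chr10, 14000001 to 15000000, they had 60.7% and 36%. Over all 375 bins the shares of the parts had a Spearman's rho of -0.03. The parts make up the share on which a bin was chosen, so that these counts describe the members and were not tested.

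Mean length, which the choice of bins did not use, differed by a few bp between the tails. K+-specific IP-G4s were 301 ± 145 bp long in K-poor bins (mean ± SD, n = 801), 305 ± 159 bp in K-rich bins (n = 1823) and 297 ± 146 bp in the bins between (n = 14076). Na+-specific IP-G4s were 241 ± 88.0 bp (n = 730), 248 ± 95.4 bp (n = 549) and 243 ± 94.9 bp (n = 7480) long. The difference between K-rich and K-poor bins was 4.18 bp for the K+ type and 6.39 bp for the Na+ type, and by medians 1 and 3 bp. The means per bin had SDs of 25.5 and 26.9 bp for the K+ type and 17.7 and 23.9 bp for the Na+ type in K-poor and K-rich bins. On the 10 chromosomes that had both tails, the mean was longer in K-rich bins on 7 for the K+ type and on 8 for the Na+ type. The differences were small beside the spread of single bins, and were not tested. Across the 375 bins Spearman's rho of K share and mean length was 0.04 for the K+ type and -0.01 for the Na+ type.

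The K+ type was the longer one in each class of bins, by 59.2 bp on average in K-poor bins, 57.0 bp in K-rich bins and 53.7 bp in the bins between. Their mean was the larger one in all 25 K-poor bins and in 31 of 34 K-rich bins. IP-G4s under 200 bp were 16.5% of the K+ type in K-poor bins (14.1% to 19.2%) and 15.5% in K-rich bins (13.9% to 17.2%), and 24.9% (21.9% to 28.2%) and 24.2% (20.8% to 28.0%) of the Na+ type. IP-G4s of at least 600 bp were 5.37% of the K+ type in K-poor bins and 5.38% in K-rich bins, against 4.62% of all K+-specific IP-G4s, and only 2 and 4 of the Na+ type. Each listed segment is the overlap of peaks in both replicates, so that these lengths are those of the shared part.

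**Figure D4:**
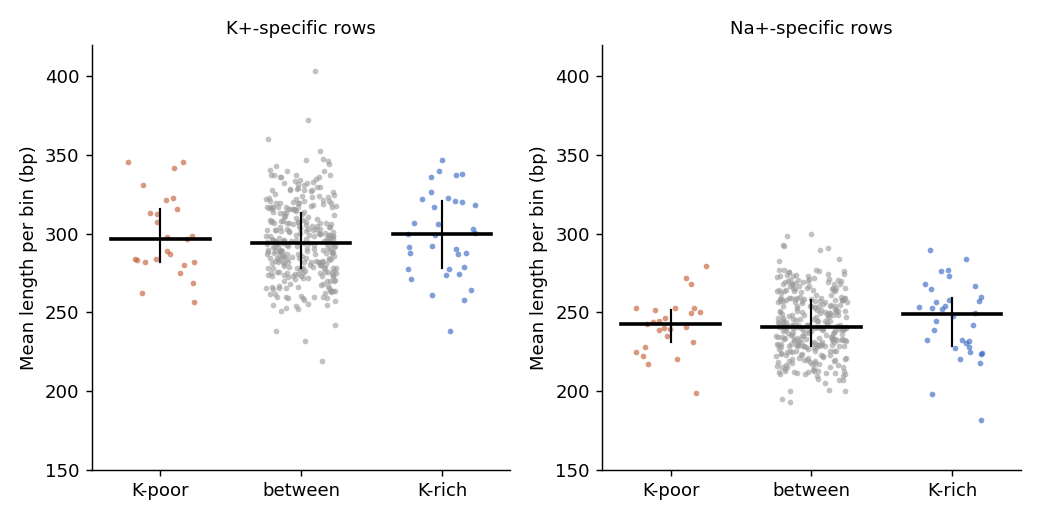
Mean length of each type of IP-G4 per 1 Mb bin (vertical axes in bp, starting at 150) in K-poor, intermediate and K-rich bins. Each point is a bin, thick bars are medians and thin bars span the quartiles. The classes overlap throughout within a type, and the K+ type was the longer one in each class.

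The longest members lay in K-rich bins. The longest K+-specific IP-G4 of the whole list, 1847 bp, was at Chr11, 12289943 to 12291789, followed in K-rich bins by 1408 bp at Chr10, 2677343 to 2678750. The longest in a K-poor bin were 1021 bp at Chr11, 24540462 to 24541482, and 998 bp at Chr6, 13021477 to 13022474. Among Na+-specific members the longest were 930 bp in a K-rich bin (Chr5, 10063290 to 10064219) and 711 bp in a K-poor bin (Chr3, 21550333 to 21551043). The K-rich bins held more K+-specific and fewer Na+-specific IP-G4s than the K-poor bins, and a longest value grows with the number listed. In the 5 bins of lowest K share the longest K+-specific IP-G4 measured 442 to 616 bp per bin and the longest Na+-specific one 345 to 502 bp. In the 5 of highest share the corresponding ranges were 508 to 1166 bp and 279 to 500 bp. The 1166 bp IP-G4 lay at Chr10, 21880495 to 21881660.

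Distances to the chromosome end, which was taken as the last listed position because no reference of this genome build was used, overlapped between the tails. K-poor bins lay a median of 6.91 Mb from the nearer end (range 0.342 to 17.5 Mb, SD 5.35 Mb) and K-rich bins a median of 5.5 Mb (range 0.487 to 20.7 Mb, SD 5.65 Mb). The bins between lay a median of 7.83 Mb away. The difference, K-rich minus K-poor, of -1.41 Mb is small beside the SD of single bins, and its direction changed with other ways of making the bins. Within 5 Mb of an end lay 9 of 25 K-poor bins (36%), 16 of 34 K-rich bins (47.1%) and 122 of all 375 bins (32.5%). The first or last bin of a chromosome was K-poor in 1 case, on Chr7, and K-rich in 2, on Chr5 and Chr9. Over the 375 bins the number of IP-G4s was higher away from the ends (Spearman's rho 0.43), while the K share had a rho of 0.02 with the same distance.

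None of the 25 K-poor bins stood beside another K-poor bin (interval up to 13.3%). Of the 34 K-rich bins, 7 stood beside another K-rich bin (20.6%, 10.3% to 36.8%). These intervals overlap, and the difference between the tails was not tested. A bin was counted where the bin on either side was of its class. The class shares of 6.67% and 9.07% of all bins are therefore not a like baseline, and none was computed. The 363 pairs of adjacent kept bins included 4 K-rich pairs (1.10%), 2 pairs of opposite tails and 256 pairs in which both bins lay between the limits. The longest series of K-rich bins was Chr6, 1000001 to 4000000, where 3 bins held 120 K+-specific and 35 Na+-specific IP-G4s (77.4%, 70.2% to 83.3%). Pairs of K-rich bins were Chr1, 29000001 to 31000000 (92 and 30, 75.4%) and Chr5, 1 to 2000000 (90 and 28, 76.3%). When the cuts were moved by 500 kb, 17.4% of the K-poor and 24.2% of the K-rich bins then obtained stood beside another of their class, so that the isolation of K-poor bins held for one placement of the cuts.

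Neighbours of opposite tails occurred on Chr5 and Chr7. On Chr5 the bin of lowest K share, from 26000001, was followed by a K-rich bin from 27000001 with 49 K+-specific and 14 Na+-specific IP-G4s (77.8%). On Chr7 a K-rich bin from 23000001 with 45 and 15 (75%) was followed by a K-poor bin from 24000001 with 41 and 35 (53.9%).

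The bins next to skewed bins took no part in choosing them, and their K shares were close to that of the whole list. The 46 kept neighbours of K-poor bins had 64.2% pooled (1990 of 3100 IP-G4s, 62.5% to 65.9%), and the 62 neighbours of K-rich bins had 65.8% (2774 of 4216, 64.4% to 67.2%). Leaving out neighbours that were themselves K-rich, which can only lower the share, the latter had 64.7% (63.2% to 66.2%). The share of the neighbours of a bin was below that of the whole list for 18 of 25 K-poor bins and for 15 of 34 K-rich bins. This number was not counted over all kept bins, where the neighbours' share had a median of 65.7% (SD 4.92 points). The median was 64.0% for K-poor bins (SD 3.30 points) and 67.1% for K-rich bins (SD 5.19 points), and these differences were not tested. Over 375 bins, Spearman's rho between the K share of a bin and that of its neighbours was 0.11, where neighbouring values share bins.

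**Figure D5:**
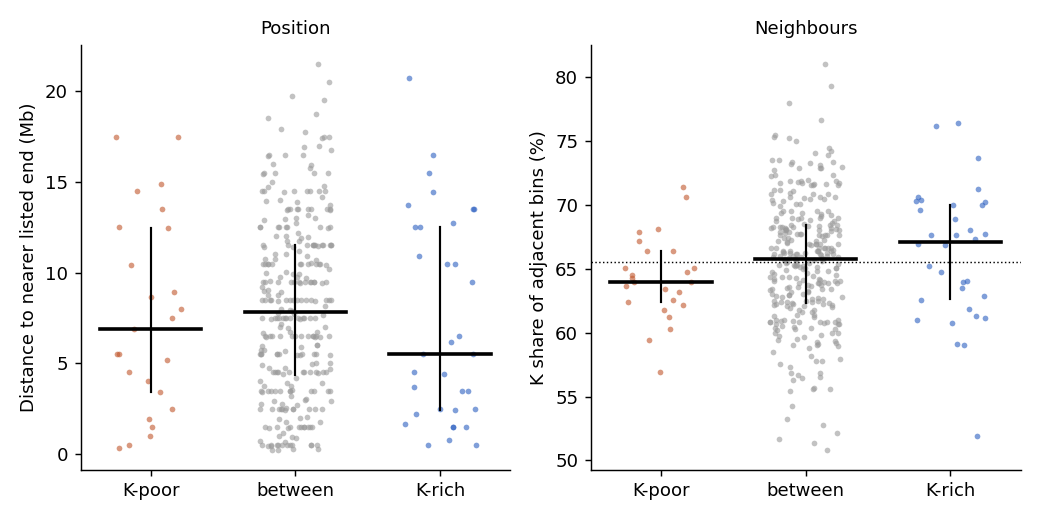
Left, distance of each 1 Mb bin from the nearer listed chromosome end (Mb); right, pooled K share (%) of the adjacent kept bins, with the share of the whole list as a dotted line. Points are bins, thick bars are medians and thin bars span the quartiles. Median distances were 6.91, 7.83 and 5.5 Mb in K-poor, intermediate and K-rich bins, and the neighbours of all classes centred near the share of the whole list.

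K-poor bins occurred on 10 chromosomes and K-rich bins on 11, with both on 10 and neither on Chr12. Chr6 had the most skewed bins, with 6 K-rich and 2 K-poor of 31, and Chr5 followed for the K-rich tail with 5 K-rich and 1 K-poor of 30. K-poor bins were most numerous on Chr4 (5 of 36, beside 1 K-rich) and Chr11 (5 of 29, beside 1 K-rich). Whole chromosomes differed little: the K share ranged from 63.6% on Chr4 (61.7% to 65.5%) to 67.1% on Chr2 (65.1% to 69.0%). Chr9 had 1 K-rich and no K-poor bin.

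The remaining K-poor bins began at 2000001 on Chr1, 17000001 and 23000001 on Chr2, 21000001 on Chr3, and 5000001, 17000001, 27000001 and 31000001 on Chr4. Further ones began at 5000001 and 13000001 on Chr6, 29000001 on Chr7, 19000001 on Chr8, and 1000001, 14000001, 16000001, 24000001 and 28000001 on Chr11. The densest of them was Chr11, 16000001 to 17000000, with 45 K+-specific and 43 Na+-specific IP-G4s (51.1%), which was also the largest number of Na+-specific IP-G4s in any bin. The sparsest was Chr4, 31000001 to 32000000, with 18 and 17 (51.4%). Remaining K-rich bins not named so far began at 22000001 on Chr1, 31000001 on Chr2, 5000001, 12000001 and 25000001 on Chr3, 1000001 on Chr4, 15000001 on Chr5 and 10000001 and 30000001 on Chr6. The others began at 5000001, 9000001 and 27000001 on Chr7, 3000001 and 13000001 on Chr8, 2000001, 4000001 and 19000001 on Chr10 and 12000001 on Chr11. The sparsest K-rich bin was Chr7, 27000001 to 28000000, with 26 and 8 (76.5%).

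Close neighbours of one type were counted as well. When IP-G4s of one type within 1 kb of each other were joined and counted once, the K+ type lost 13.2% of its members in K-rich bins (1823 to 1582), 10.2% in the bins between and 7.37% in K-poor bins (801 to 742). The Na+ type lost 4.37%, 4.93% and 5.89% in the same order. More IP-G4s of a type in a bin can bring more of them within 1 kb of each other, and the bins were chosen on these counts. The loss to be expected at these counts was not computed, so that the origin of the losses was not tested. In Chr2, 13000001 to 14000000, joining left 71 K+-specific and 23 Na+-specific IP-G4s (75.5%), and in Chr5, 10000001 to 11000000, it left 79 and 29 (73.1%). The number of K-rich bins was 20 after joining, and all 20 were among the 34.

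One skewed bin, the K-poor bin Chr1, 2000001 to 3000000, lay on the stretch for which peaks of all 4 enriched libraries were used here, Chr1 up to position 5855384. Intersecting the peaks of the libraries as described gave all 161 K+-specific and 106 Na+-specific segments listed in the first 5 bins, with identical coordinates, so that the makeup of this bin could be followed back to the libraries. It held 25 K+-specific and 24 Na+-specific IP-G4s (51.0%, 37.5% to 64.4%). The 4 other whole bins of the stretch held 24 to 48 and 15 to 25, with K shares of 59.6% to 65.8%. Its interval contains these shares except the highest, 65.8% in Chr1, 1000001 to 2000000.

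In the bin, replicate 1 and 2 of K+PEG had 126 and 135 peaks, and those of Na+PEG had 137 and 106. In the 4 other bins the ranges were 116 to 130 and 136 to 164 for K+PEG, and 125 to 149 and 92 to 119 for Na+PEG. Only K+PEG replicate 2 was outside the range of the other bins, by 1 peak. Segments shared by both replicates numbered 84 under K+PEG (88 to 109 in the other bins) and 83 under Na+PEG (79 to 93). Of these, 59 of each condition overlapped the other condition (61 to 71 and 61 to 72 in the other bins). The bin thus had 1.01 reproducible K+PEG segments for each Na+PEG segment, against 1.10 to 1.27 in the other 4.

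The median fold enrichment over input, a ratio given by the peak caller, was 4.27 and 4.20 in the K+PEG replicates (4.02 to 4.48 and 3.72 to 4.15 in the other bins). In the Na+PEG replicates it was 3.44 and 3.85 (3.41 to 3.77 and 3.56 to 4.27). For all peaks, only K+PEG replicate 2 was outside the range of the other bins, with the higher median in the K-poor bin. At Na+-specific IP-G4s, the median in Na+PEG replicate 1 was 3.34 (3.15 to 3.31 in the other bins). Its median −log10 p-value from the peak caller was 9.41 (7.86 to 9.05). At K+-specific IP-G4s in K+PEG replicate 2 this was 9.90 (10.1 to 12.0). The other medians at specific IP-G4s lay within range. Median peak lengths were 299 and 292 bp in Na+PEG (313 to 333 and 300 to 328.5), and within range in K+PEG. Of the 25 K+-specific IP-G4s, 12 overlapped a peak of Na+PEG replicate 1 and 6 one of replicate 2, and 7 had no peak in either. Of the 24 Na+-specific IP-G4s, 5 overlapped a peak of K+PEG replicate 1 and 14 one of replicate 2, and 5 had no peak in either. In the other bins 7 to 16 K+-specific and 1 to 6 Na+-specific IP-G4s were free of any peak of the other condition. Most members of the bin were therefore specific by failing to recur in both replicates of the other condition. In each of the other bins most IP-G4s of either type also overlapped a peak of the other condition, so this was not particular to the K-poor bin.

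The peaks of single libraries read here reach unequally far beyond this stretch, and among them those of Na+PEG replicate 2 alone cover the K-poor bin Chr1, 7000001 to 8000000. It had 130 peaks there, against 86 to 119 in the 7 bins before it. Peaks of the other libraries in this bin were not analysed here, so that its 30 IP-G4s of each type could not be followed back in the same way.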

How the data were processed

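Positions were taken from the deposited lists of specific IP-G4s of either type, on the MSU rice genome release 7.0. According to the methods, the authors trimmed reads with Trim Galore, aligned them with BWA, removed duplicates with SAMtools, called peaks in each library with MACS against input, and intersected replicates with bedtools. The command that compared the conditions is not given in the sources used here; keeping the segments of one condition that no reproducible segment of the other overlapped gave the listed segments on the start of Chr1. In the deposited lists of single libraries, used for the start of Chr1 only, each peak has a score, a fold enrichment over input (a ratio) and the −log10 of its p-value and of its q-value. The score and the q-value were not used, and a last line that broke off was dropped from each list.

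The members, limits and comparisons were chosen with earlier results of these data known. Starts were converted to count from 1. IP-G4s were assigned to bins of 1 Mb by midpoint, and the overlap minimum was 1 bp. Intervals of shares are Wilson intervals at 95%. No test was made, since bins were chosen on the counts described and the lists have no replicates. Spreads are SDs across bins, except those of the pooled lengths, which are SDs over single IP-G4s. The bins named are the 5 of lowest and the 5 of highest K share, those next to each limit, the longest series of adjacent bins, the chromosomes with most skewed bins, and skewed bins on the covered start of Chr1. Further named bins and series, and the limits of 80, 90 and 100 IP-G4s, were chosen after values were seen. Computations used Python 3.11.15 with pandas, numpy and scipy, and the binning and intersection were tested on simulated data. The alternatives tried are listed in the closing section. The input libraries, common IP-G4s, and the sequence and annotation of the genome build were not used here.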

Additional observations from a re-analysis of the deposited data

How the results depend on the processing

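The number of skewed bins followed the way of cutting. There were 113 K-poor and 117 K-rich bins at 500 kb, 2 and 5 at 2 Mb, 15 and 19 with at least 60 IP-G4s per bin, 4 and 2 at limits of 50% and 80%, and 54 and 63 at limits of 58% and 72%. With only IP-G4s of at least 200 bp, where the share of the list was 68.1%, there were 16 and 63, and after joining IP-G4s within 1 kb, where it was 64.2%, there were 33 and 20. With the cuts moved by 500 kb, 10 of the 25 K-poor and 20 of the 34 K-rich bins overlapped a bin of the same class. In all 12 alternatives, K-rich bins had more K+-specific and fewer Na+-specific IP-G4s than K-poor bins, as the choice fixes. Their difference in total was 42 at 2 Mb and -1.5 to 18 otherwise. The difference in mean length changed sign in 2 of 13 alternatives for the K+ type and in 1 of 13 for the Na+ type, and it moved by less than the spread of bins except for the Na+ type at 2 Mb (27.7 bp) and at 50% and 80% (-23.7 bp). The difference in distance had the opposite sign in 5 of 12 alternatives and was 4.31 Mb at 2 Mb. The share of K-poor bins beside another was 17.4% with moved cuts, 22.1% at 500 kb, 33.3% at 58% and 72% and 24.2% after joining. That of K-rich bins was 0% at 2 Mb, with at least 60 IP-G4s and at 50% and 80%.

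For the K-poor bin at the start of Chr1, leaving out each library in turn gave a K share between 16.9% and 86.8%, since the condition left with 1 library then keeps all its peaks; the bin kept the lowest share of the 5 bins in 3 of these 4 settings. An overlap of 50% of both peaks gave 46.8%, where the bin was again the lowest of 5, and the peaks with smaller p-values gave 58.6%, past the limit of 55%, with 2 of the other 4 bins lower. No paired analysis was possible because no result comes from a test. The main limits are that skewed bins held medians of 62 and 63 IP-G4s, that the spread of K shares is close to counting error, and that the lists have no replicates.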
